A study of Mus musculus with 42 samples.

Results

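The earliest retinal response to mild hypoxia was followed in 12 of the 42 mice of the series, namely the 6 retinas of 14-06h-ZH and the 6 retinas of Normoxia. The groups were chosen by their labels, and all 25700 genes of the expression table entered the description. Mice of 14-06h-ZH breathed 14% oxygen at the normal air pressure of Zurich for 6 h and were 9 to 11 weeks old when the exposure began, whereas mice of Normoxia breathed 21% oxygen for 11 weeks from an age of 9.5 weeks and were thus older when their retinas were collected. All mice were C57BL/6J, a common inbred strain, and each gave 1 whole retina that was lifted out through a cut in the cornea and sequenced as its own library. The comparison asks which transcripts differ after the first hours at an oxygen level like that of high altitude. The 2 groups also differ in the code series of their libraries, and by Y-linked expression in their mix of sexes. Oxygen, age and code series cannot be told apart in these 12 mice, and sex is only partly separable, since mice with Y-linked expression were in both groups but mice without it were in 14-06h-ZH only. A further group, 14-48h-ZH (14% oxygen for 48 h, n = 6), shares its code series with 14-06h-ZH, and its levels are set beside those of single genes where they help to place a value.

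Cells sense oxygen through the hypoxia-inducible factors (HIFs). Prolyl hydroxylases use oxygen to mark the HIF alpha subunits, the von Hippel-Lindau protein then leads them to degradation, and when oxygen is scarce the subunits persist, pair with ARNT and bind hypoxia response elements near their target genes. Many targets shift energy production towards glycolysis, which is already prominent in the retina because photoreceptors turn much of their glucose into lactate, and others act on vessels, on mitochondria and on the pathway itself.

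The 12 libraries held enough reads for a description of single genes, with 16660570 to 19637153 reads in genes in 14-06h-ZH and 14892441 to 20048568 in Normoxia. Nrl, a transcription factor of rods, was abundant in every mouse, with 784 to 917 FPKM in 14-06h-ZH and 994 to 1087 FPKM in Normoxia, as a retina should show. Correlations of log2 levels between mice were 0.979 to 0.994 within 14-06h-ZH, 0.977 to 0.991 within Normoxia and 0.970 to 0.988 between the groups. Lens RNA varied from mouse to mouse, with a summed level of lens fibre genes of 628 to 977 FPKM (fragments per kilobase of transcript, scaled to the reads of the library) in replicates 3, 4 and 6 of 14-06h-ZH and 208 to 217 FPKM in its other 3 mice, against 377 and 403 FPKM in replicates 1 and 4 of Normoxia and 211 to 226 FPKM in the other 4. The Y-linked gene Ddx3y had 0 FPKM in replicates 4 to 6 of 14-06h-ZH and 21.2 to 28.6 FPKM in replicates 1 to 3, against 27.7 to 32.1 FPKM in all 6 mice of Normoxia.

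Differences were widespread and mostly small. Of 17087 genes tested, 63 (0.369%) were called higher and 100 (0.585%) were called lower in 14-06h-ZH, a call being an adjusted p of at most 0.05 in limma together with a change of at least 2-fold (1 on the log2 scale). Without the limit on the fold, 1628 genes (9.53%) were higher and 4240 (24.8%) were lower, and the median log2 fold change of all genes was −0.05. The excess of lower genes depended on how the libraries were scaled. The 10 most abundant genes of a library took 10.4% to 11.1% of reads in 14-06h-ZH and 8.99% to 9.74% in Normoxia, without overlap, and their part in the excess was not tested. Of the genes past the adjusted p, 27.7% were higher with the FPKM as deposited, 47.3% after median-of-ratios scaling of the FPKM, 48.5% with edgeR on recovered reads and 51.7% after correction for GC content. Among the called genes the higher ones made up 38.7%, 46.5%, 52.6% and 59.0% under the same 4 treatments. Fold changes below are on the log2(FPKM + 0.1) scale as deposited, with their standard error (SE), and on this scale the change of genes with low FPKM is understated.

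**Figure D1:**
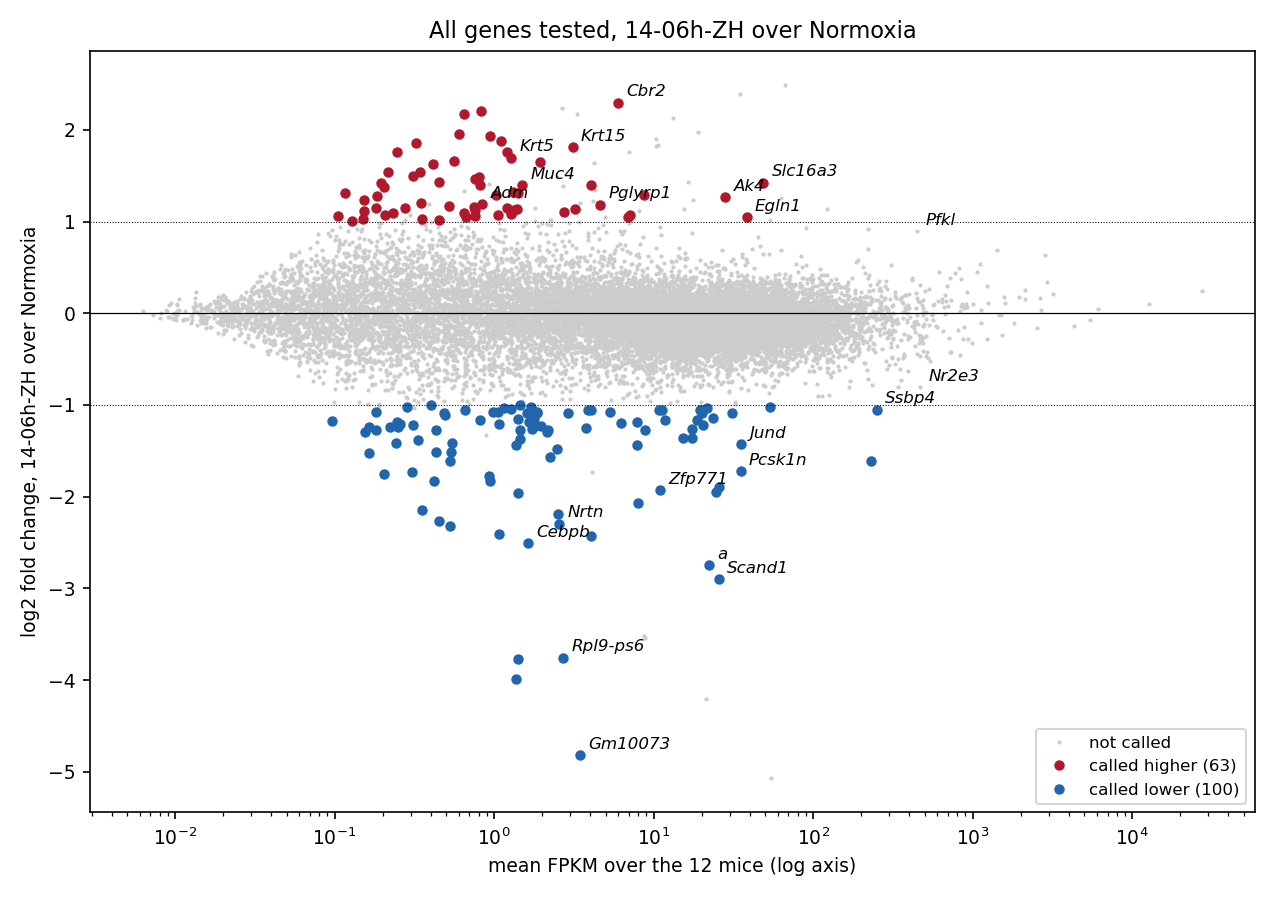
Log2 fold change of 14-06h-ZH over Normoxia on the log2(FPKM + 0.1) scale for each gene tested (y axis), against its mean FPKM over the 12 mice (x axis, log scale). Red points are the 63 genes called higher and blue points the 100 genes called lower, grey points were not called and dotted lines mark 2-fold. Egln1, Ak4 and Slc16a3 stand out among the higher genes for their high level, while most other higher genes lie near or below 1 FPKM.

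Genes called higher were mostly scarce transcripts, and those called lower were often short and rich in G and C. The median of the mean FPKM was 0.759 for the higher genes, 1.71 for the lower genes and 10.2 for all genes tested. Median GC content of the longest transcript was 52.4% for the higher genes, 58.0% for the lower genes and 49.6% for all genes. Genes with 1 exon made up 45.9% of the annotated lower genes, against 9.52% of the higher genes and 8.10% of all. The 6 mice of one group lay entirely outside the range of the other for 26 of the 63 higher genes and for 75 of the 100 lower genes, against 3120 of all 17087.

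Targets of the hypoxia-inducible factors rose more often than they fell. Of 56 targets tested, 29 rose and 4 fell at any fold, with a median log2 fold change of 0.24. Among all genes, 9.53% rose and 24.8% fell. With edgeR on recovered reads 30 targets were higher and 3 lower, against 2787 and 2957 of all genes. Of the 56 targets, 4 (Egln1, Ak4, Slc16a3 and Adm) were called higher, against 0.369% of all genes. Egln1, which encodes the prolyl hydroxylase PHD2 and so the main oxygen sensor of the pathway, had 46.7, 50.8 and 58.9 FPKM (lowest, median and highest) in 14-06h-ZH and 22.9, 25.2 and 26.8 FPKM in Normoxia. Every hypoxic mouse was thus above every normoxic mouse, by a log2 fold change of 1.05 (SE 0.06, limma adjusted p = 6.26e-09). Ak4, a mitochondrial adenylate kinase, showed 34.3, 40.5 and 42.6 FPKM in 14-06h-ZH and 14.6, 16.1 and 18.9 FPKM in Normoxia (log2 fold change 1.27, SE 0.07, limma adjusted p = 9.02e-09), again without overlap. Slc16a3, the monocarboxylate transporter MCT4 that carries lactate out of the cell, reached 61.5, 69.98 and 79.8 FPKM in 14-06h-ZH, against 21.7, 24.7 and 33.3 FPKM in Normoxia. Its log2 fold change of 1.42 (SE 0.11, limma adjusted p = 1.31e-06) was the largest of the 29 targets that rose. Adm, which encodes the vasodilator peptide adrenomedullin, was scarce, at 1.02, 1.15 and 1.42 FPKM in 14-06h-ZH and 0.249, 0.444 and 0.858 FPKM in Normoxia (limma adjusted p = 0.000489), yet the groups did not overlap.

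**Figure D2:**
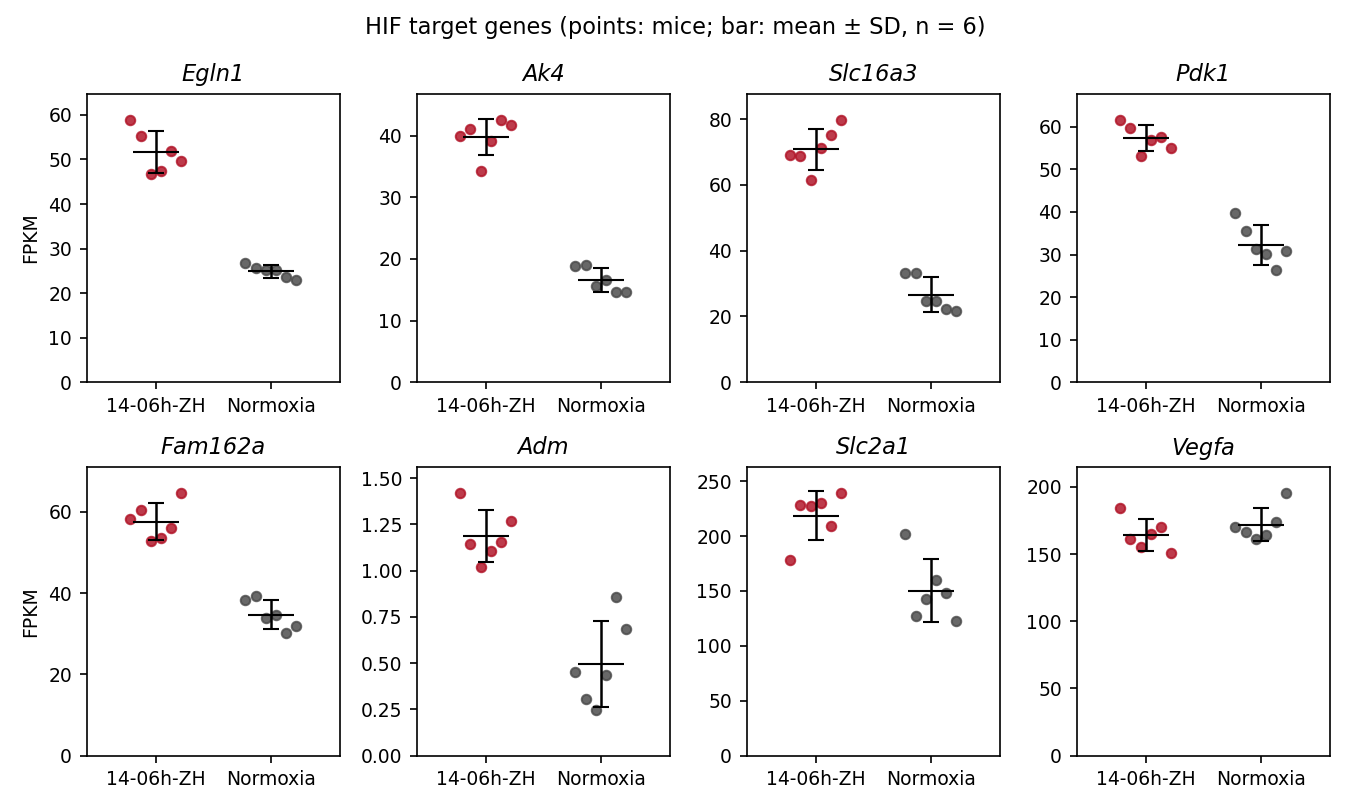
FPKM (y axis) of 8 hypoxia-inducible factor targets in each mouse of 14-06h-ZH (red, left) and Normoxia (grey, right), where each point is 1 mouse and bars show the mean ± SD of 6 mice. The groups are apart for Egln1, Ak4, Slc16a3, Pdk1, Fam162a and Adm, overlap for Slc2a1 and cover much the same range for Vegfa.

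Several targets rose by less than 2-fold. Pdk1, the kinase that limits the entry of pyruvate into mitochondria, had 53.2, 57.3 and 61.7 FPKM in 14-06h-ZH and 26.2, 31.1 and 39.8 FPKM in Normoxia, without overlap (limma adjusted p = 1.46e-06). Fam162a, a mitochondrial protein linked to cell death in hypoxia, had 52.7, 57.1 and 64.6 FPKM in 14-06h-ZH and 30.2, 34.3 and 39.2 FPKM in Normoxia, likewise without overlap and with a log2 fold change of 0.73 (SE 0.07, limma adjusted p = 6.38e-07). Bnip3, a mitophagy receptor, reached 198, 228 and 251 FPKM in 14-06h-ZH and 124, 153 and 175 FPKM in Normoxia, so that its groups were separate as well (limma adjusted p = 2.15e-05). Slc2a1, the glucose transporter GLUT1, ranged from 178 to 239 FPKM in 14-06h-ZH and from 122 to 202 FPKM in Normoxia (limma adjusted p = 0.0026). A single normoxic mouse lay within the hypoxic range, and with only the 9 mice that expressed Y-linked genes its log2 fold change was 0.50 (limma adjusted p = 0.053).

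The targets that fell included a hormone and a feedback inhibitor. Epo, the gene for erythropoietin, which was named after its values were seen, had 0.791, 1.08 and 1.57 FPKM in 14-06h-ZH and 1.88, 2.58 and 3.07 FPKM in Normoxia (log2 fold change −1.08, SE 0.16, limma adjusted p = 6.23e-05). These values rest on 10 to 20 reads in 14-06h-ZH and 26 to 43 reads in Normoxia, and the groups did not overlap. Cited2, which competes with HIF for the coactivator p300/CBP, had 60.3, 68.4 and 76.1 FPKM in 14-06h-ZH and 89.3, 97.4 and 105 FPKM in Normoxia, also without overlap. Vegfa, the main angiogenic factor of the retina, did not pass the test, with 150.5, 163 and 184 FPKM in 14-06h-ZH and 161, 168 and 195 FPKM in Normoxia (log2 fold change −0.06, SE 0.05, limma adjusted p = 0.388).

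The promoters of the called targets are shown because the core of the hypoxia response element, ACGTG, can be read directly in them. RefSeq promoter windows (GRCm38.p6, 250 bases before to 50 bases after the start, on the strand of the gene) were found for 45 of the 56 targets, and 28 of the 45 had ACGTG on either strand (CACGT when read on the other strand) in at least 1 window. By window, the core occurred in 48.4% of 64 windows of the targets, against 23.5% of windows of all genes tested and 19.6% of all 32851 promoters. Among the targets that rose, it occurred in 45.5% of 33 windows. Targets that fell had it too, Cited2 among them, while Epo did not. Of the 4 called targets, Egln1, Ak4 and Slc16a3 had a window with the core, which is set in capitals in the windows below, and no core was found in the windows of Adm. In the Ak4 window the core of one strand overlaps that of the other (CACGTG), and the other windows of Ak4 had no core. A match describes letters only.
Ak4, chr4:101419453-101419752, plus strand: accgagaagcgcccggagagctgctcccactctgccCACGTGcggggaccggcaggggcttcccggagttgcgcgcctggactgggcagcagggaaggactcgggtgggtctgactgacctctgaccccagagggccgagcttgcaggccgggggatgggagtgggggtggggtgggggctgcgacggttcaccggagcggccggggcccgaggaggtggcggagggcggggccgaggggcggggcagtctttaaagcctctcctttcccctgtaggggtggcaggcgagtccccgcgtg
Egln1, chr8:124949205-124949504, minus strand: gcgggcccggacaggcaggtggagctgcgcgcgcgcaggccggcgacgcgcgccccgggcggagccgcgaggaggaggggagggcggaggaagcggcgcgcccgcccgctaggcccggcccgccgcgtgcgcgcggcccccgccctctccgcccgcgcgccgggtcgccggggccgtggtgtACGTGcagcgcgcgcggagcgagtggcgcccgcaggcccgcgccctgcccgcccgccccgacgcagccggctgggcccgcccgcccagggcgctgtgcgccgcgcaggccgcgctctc
Slc16a3, chr11:120948817-120949116, plus strand: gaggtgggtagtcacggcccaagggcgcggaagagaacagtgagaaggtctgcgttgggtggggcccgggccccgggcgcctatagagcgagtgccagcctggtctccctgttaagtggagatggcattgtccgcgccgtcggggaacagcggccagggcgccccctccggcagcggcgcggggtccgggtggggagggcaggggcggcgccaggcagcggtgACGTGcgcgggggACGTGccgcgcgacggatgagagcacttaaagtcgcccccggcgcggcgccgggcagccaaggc

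The components of the oxygen sensing pathway itself showed 3 higher and 4 lower members among 14 tested, against 9.53% higher and 24.8% lower among all genes. With edgeR on recovered reads 5 were higher and 3 lower, against 2787 and 2957 of all 17087 genes. Egln1, Egln3 and Cited2 are also counted among the HIF targets. Besides Egln1, Hif3a, whose product can restrain the other HIF alpha subunits, rose to 2.999, 3.95 and 4.46 FPKM in 14-06h-ZH, against 1.46, 2.27 and 3.05 FPKM in Normoxia (log2 fold change 0.75, SE 0.16, limma adjusted p = 0.00164). The 2 ranges of Hif3a just overlapped, and without the 5 libraries rich in lens RNA its log2 fold change was 0.47 (limma adjusted p = 0.0744). Arnt2, a partner of HIF in neurons, had 15.4, 17.2 and 19.7 FPKM in 14-06h-ZH and 13.2, 13.8 and 15.4 FPKM in Normoxia, with a log2 fold change of 0.29 (SE 0.06). Cited4, a relative of Cited2, was called lower, with 0.716, 1.09 and 1.48 FPKM in 14-06h-ZH and 1.69, 2.64 and 4.75 FPKM in Normoxia (log2 fold change −1.23, SE 0.22, limma adjusted p = 0.000453). The GC content of its longest transcript was 66.4%, and its log2 fold change was −0.79 after correction for GC content. The transcripts of HIF-1 alpha and HIF-2 alpha did not pass the test. Hif1a ranged from 264 to 295 FPKM in 14-06h-ZH and from 278 to 314 FPKM in Normoxia, and Epas1, which encodes HIF-2 alpha, from 30.4 to 40.1 FPKM in 14-06h-ZH and from 28.98 to 35.0 FPKM in Normoxia. The limma adjusted p of Epas1 was 0.087 with the FPKM as deposited and 0.0245 after median-of-ratios scaling, at log2 fold changes of 0.14 and 0.21. Vhl and Egln3 did not pass either, with log2 fold changes of −0.04 (SE 0.05) and 0.26 (SE 0.18).

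Most genes of glycolysis were higher as well. Of 32 genes for glycolysis and lactate export, 22 rose and 3 fell, with a median log2 fold change of 0.28, against 9.53% higher and 24.8% lower among all genes. Aldoa entered the list under 2 gene identifiers, 1 of which rose. The list shares 6 genes with the HIF targets, among them Pdk1, Slc16a3 and Slc2a1. Pfkl, the liver type of phosphofructokinase at the committed step of glycolysis, had 509.6, 589.6 and 621 FPKM in 14-06h-ZH and 276, 311 and 359.7 FPKM in Normoxia (log2 fold change 0.90, SE 0.06, limma adjusted p = 5.16e-08). Eno1, an enolase, reached 1553, 1749.5 and 1908 FPKM in 14-06h-ZH, against 1012, 1082 and 1158 FPKM in Normoxia (log2 fold change 0.69, SE 0.05). Tpi1, the triose phosphate isomerase, had 1174, 1344 and 1382 FPKM in 14-06h-ZH and 831, 889 and 998 FPKM in Normoxia (log2 fold change 0.54, SE 0.05). In these 3 genes all hypoxic mice were above all normoxic mice. The 3 members that fell, named after their values were seen, were Pfkfb2 (log2 fold change −0.33), Pdk3 (−0.14) and Ldhb (−0.12). Of these, Pdk3 and Ldhb did not pass after median-of-ratios scaling, with limma adjusted p of 0.27 and 0.341, and Ldhb did not pass when replicate 1 of Normoxia was left out, among other mice (0.0749). Pfkfb2 did not pass without the 5 libraries rich in lens RNA (0.0881).

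Genes from the neighbouring functions of vessels and glia rose in smaller numbers. Among all genes tested, 9.53% rose and 24.8% fell. Markers of endothelium gave 6 higher and 4 lower of 18, of smooth muscle and pericytes 4 and 0 of 13, and of Müller glia 6 and 3 of 15. More cells of a type and more RNA per cell cannot be told apart. Among 30 angiogenic factors and receptors 9 rose and 3 fell, with a median of 0.14 on the log2 scale. Among 25 genes of reactive gliosis 6 rose and 1 fell, with a median of 0.39. Of the angiogenic genes, 4 were higher without the 5 libraries rich in lens RNA, a fit that holds fewer mice. Fgf2, a growth factor known to protect photoreceptors, had 29.02, 32.4 and 40.8 FPKM in 14-06h-ZH and 16.8, 20.6 and 24.9 FPKM in Normoxia, without overlap (log2 fold change 0.70, SE 0.09, limma adjusted p = 4.43e-05). Gfap, the intermediate filament of astrocytes and stressed Müller cells, had 8.097, 10.7 and 15.1 FPKM in 14-06h-ZH and 5.41, 6.08 and 6.81 FPKM in Normoxia, and again all hypoxic mice were higher (log2 fold change 0.83, SE 0.11). Tnc, an extracellular matrix protein, was at 4.1 to 4.74 FPKM in 14-06h-ZH and 2.92 to 3.53 FPKM in Normoxia (log2 fold change 0.48, SE 0.08), again with separate ranges. Flt1, a receptor of VEGF, was at 31.5 to 36.04 FPKM in 14-06h-ZH and 25.2 to 28.5 FPKM in Normoxia (log2 fold change 0.30, SE 0.05), also with separate ranges. Among the lysine demethylases, oxygen-dependent enzymes of chromatin, 8 of 24 rose and 3 fell. This count depended on the fit, with 16 higher and 1 lower with edgeR on recovered reads and 14 and 2 after GC correction, but 4 higher with the Y-linked level as a covariate and 3 higher in the libraries with Y-linked expression. Kdm4b (0.39, SE 0.04) and Kdm3a (0.33, SE 0.04) were among those that rose, on the log2 scale.

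**Figure D3:**
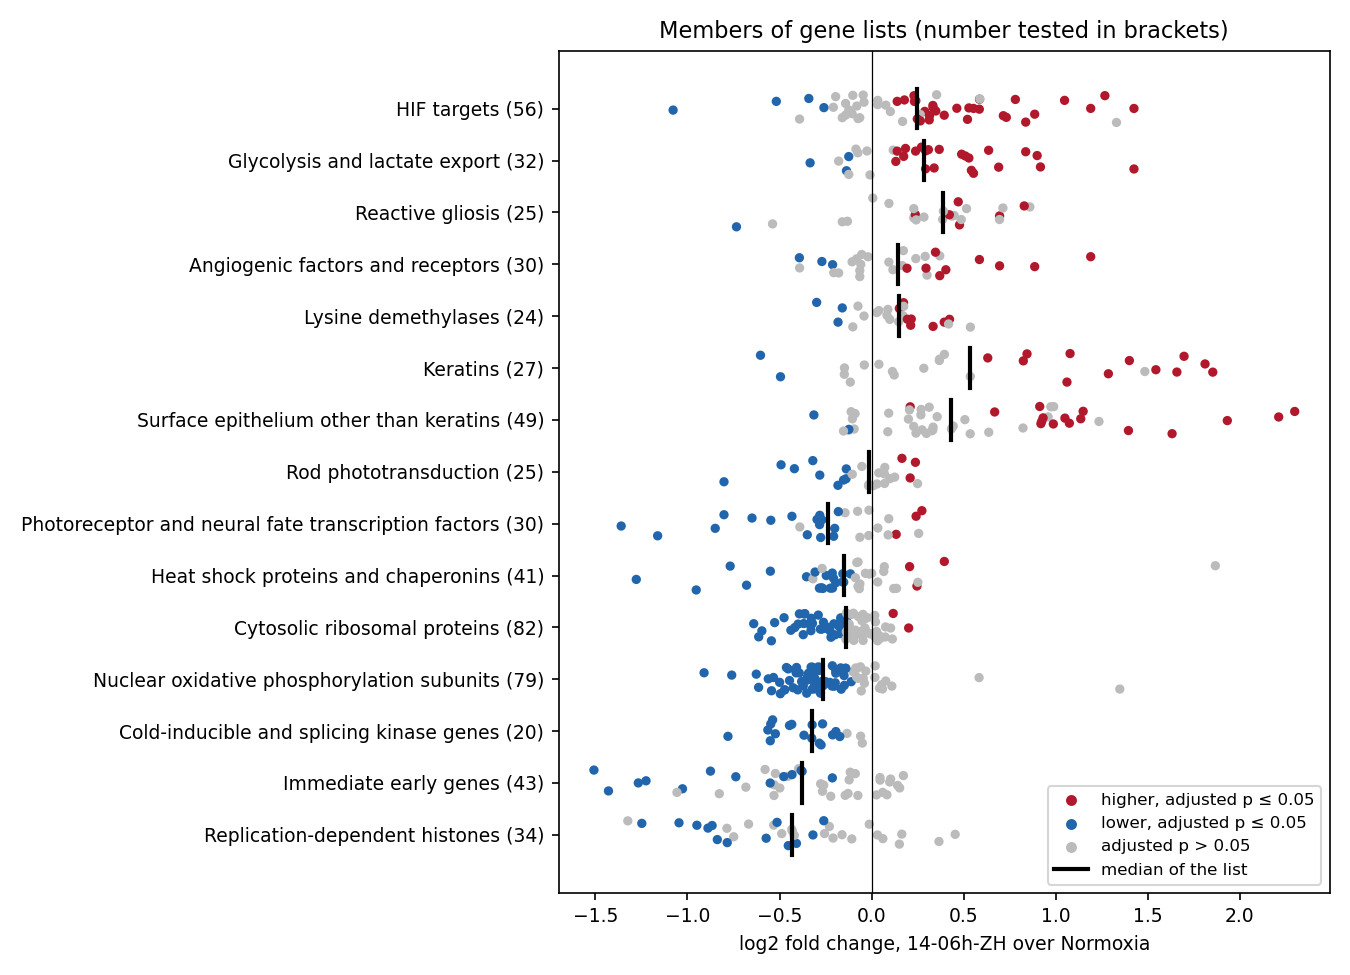
Log2 fold change of 14-06h-ZH over Normoxia (x axis) for the tested members of 15 gene lists (rows, with the number tested). Each point is 1 gene, red or blue where the adjusted p was at most 0.05 and grey otherwise, and black bars mark the median of a list. Most members of the HIF target and glycolysis lists lie to the right of 0. Nearly all points of the lists of nuclear respiratory chain subunits and of cold-inducible and splicing kinase genes lie to the left.

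Stress pathways held higher and lower genes. Among 37 genes of the unfolded protein and integrated stress response, 9 rose and 11 fell, against 9.53% and 24.8% of all genes. The balance turned with the treatment of the values, to 12 higher and 6 lower with edgeR on recovered reads, 13 and 7 after median-of-ratios scaling and 13 and 8 after GC correction. Slc7a5, an amino acid transporter, and Aldh18a1, an enzyme of proline synthesis, were higher in all 6 hypoxic mice than in any normoxic mouse. Slc7a5 was at 40.9 to 52.5 FPKM in 14-06h-ZH and 28.5 to 32.5 FPKM in Normoxia (log2 fold change 0.60, SE 0.06). Aldh18a1 was at 22.8 to 27.9 FPKM in 14-06h-ZH and 15.8 to 18.1 FPKM in Normoxia (log2 fold change 0.53, SE 0.05). Atf4, the transcription factor that controls many such genes through its translation, was lower at the level of RNA, with 134 to 146 FPKM in 14-06h-ZH and 178 to 221 FPKM in Normoxia (log2 fold change −0.49, SE 0.06). Of 26 glucocorticoid receptor targets 8 rose and 4 fell, and 2 rose without the 5 libraries rich in lens RNA. That fit holds fewer mice, and 896 of all genes were higher in it, against 1628 in the 12 mice. Ctla2a was the only called member, with 3.24, 3.75 and 4.098 FPKM in 14-06h-ZH and 0.763, 2.099 and 2.39 FPKM in Normoxia (log2 fold change 1.1, SE 0.22), and its groups did not overlap. Without the 5 libraries rich in lens RNA its log2 fold change was 1.01, and it narrowly did not pass the test. At any fold, 5 of the 26 were higher in 14-06h-ZH than in 14-48h-ZH. Sult1a1, a sulfotransferase, was one of them, with a median of 4.92 FPKM in 14-06h-ZH, 2.52 FPKM in 14-48h-ZH and 3.49 FPKM in Normoxia.

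Among the largest increases were also genes outside these lists. Pglyrp1, a peptidoglycan recognition protein of innate immunity, had 5.43, 6.27 and 7.56 FPKM in 14-06h-ZH and 2.35, 2.74 and 3.23 FPKM in Normoxia (log2 fold change 1.18, SE 0.10, limma adjusted p = 4.93e-07). Its 6 hypoxic values were all above the 6 normoxic ones. The predicted gene Gm6563 had 2.67, 2.897 and 3.73 FPKM in 14-06h-ZH and 0.695, 0.841 and 1.24 FPKM in Normoxia, based on 39 to 63 reads in 14-06h-ZH and 12 to 16 reads in Normoxia. The gene 2610528A11Rik had 7.88, 13.0 and 16.8 FPKM in 14-06h-ZH and 2.93, 5.08 and 6.55 FPKM in Normoxia (log2 fold change 1.29, SE 0.23). Neither of these overlapped between the groups, and both stood at a similar level in 14-48h-ZH, with medians of 2.94 and 14.7 FPKM.

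The comparison of 14-06h-ZH with 14-48h-ZH sets apart 2 durations within 1 code series. It shares its 6 mice of 14-06h-ZH with the comparison with Normoxia, so that the values of the 2 comparisons are not independent. At any fold, 160 of 17149 genes (0.933%) were higher and 127 (0.741%) were lower in 14-06h-ZH than in 14-48h-ZH. Of the 56 HIF targets, 13 were higher and 0 lower by limma after adjustment, and 23 were higher and 3 lower at an unadjusted p under 0.05. Of the 32 genes in the glycolysis list, 6 were higher and 0 lower by limma after adjustment, and 12 were higher and 2 lower without it. Egln1 was higher in 14-06h-ZH than in 14-48h-ZH by a log2 fold change of 0.54 (SE 0.05, limma adjusted p = 5.45e-05), Ak4 by 0.53 (SE 0.07), Pdk1 by 0.49 (SE 0.04), Fam162a by 0.50 (SE 0.05) and Slc16a3 by 0.44 (SE 0.06). The medians of Egln1 were 50.8 FPKM at 6 h and 35.1 FPKM at 48 h, beside 25.2 FPKM in Normoxia, so that the level at 48 h lay between the other 2. Hif3a (log2 fold change 0.81, SE 0.11) and Fgf2 (0.48, SE 0.08) were likewise higher at 6 h than at 48 h.

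The 10 genes with the smallest p among those with a mean of at least 1 FPKM were all lower in 14-06h-ZH, and in each of them the groups did not overlap. Jund and Insm1, described below with their families, were among them. Zfp771, a zinc finger gene at chr7:127244274-127254803 (GRCm38), had 4.27, 4.51 and 4.87 FPKM in 14-06h-ZH and 16.7, 17.2 and 19.8 FPKM in Normoxia (log2 fold change −1.93, SE 0.06, limma adjusted p = 5.52e-12). Ccdc85b, which encodes a small coiled-coil protein that restrains transcription, had 10.1, 10.4 and 12.6 FPKM in 14-06h-ZH and 37.5, 40.9 and 43.98 FPKM in Normoxia (log2 fold change −1.89, SE 0.06). Pcsk1n, the precursor of the prohormone convertase inhibitor proSAAS, had 13.7, 16.1 and 19.5 FPKM in 14-06h-ZH and 51.4, 54.5 and 56.4 FPKM in Normoxia (log2 fold change −1.73, SE 0.07). In all 3 genes the highest hypoxic mouse was below the lowest normoxic mouse. Ssbp4 and Pgp were called lower as well, at −1.05 (SE 0.05) and −1.22 (SE 0.06), while Crebzf (−0.91), Elob (−0.77) and Tmem259 (−0.68) fell by less than 2-fold. Elob encodes elongin B, a subunit of the ubiquitin ligase that contains the von Hippel-Lindau protein.

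**Figure D4:**
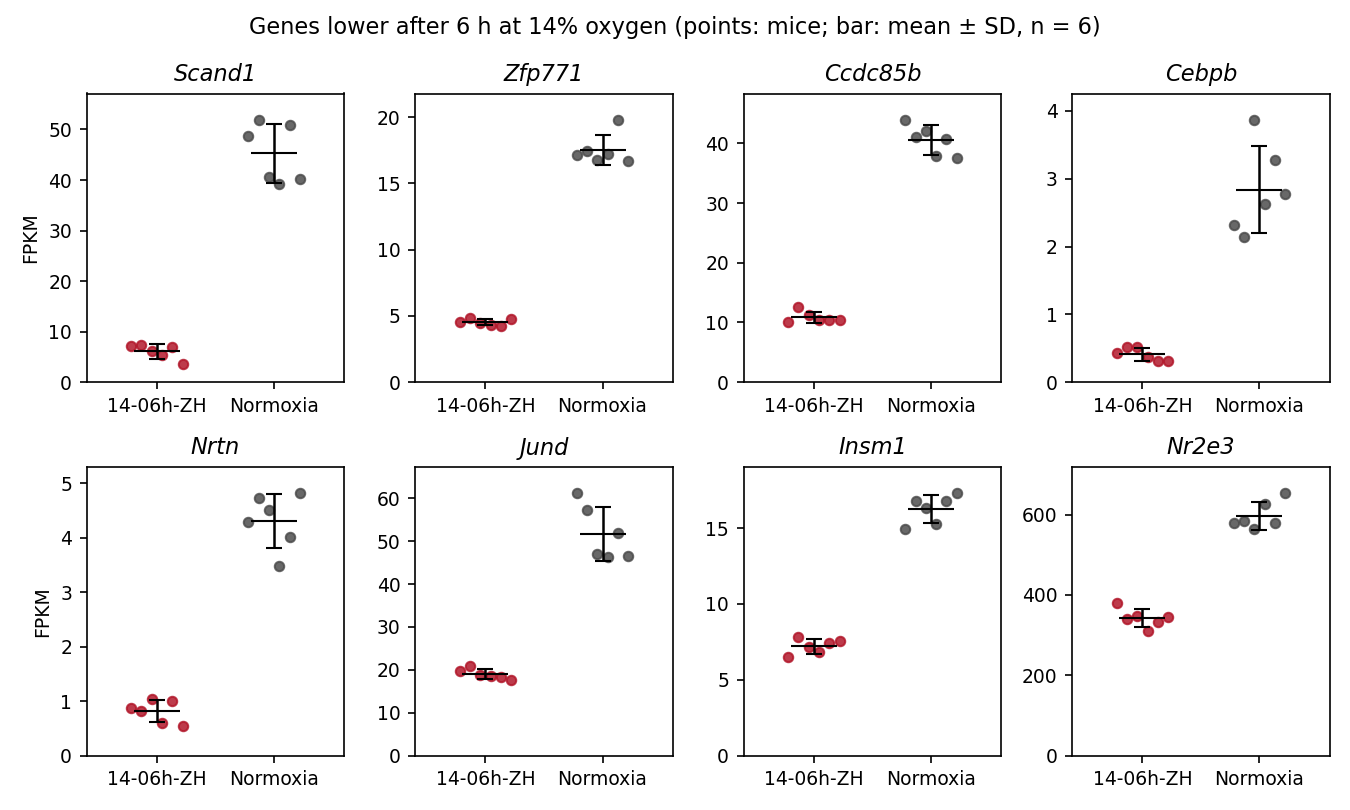
FPKM (y axis) of 8 genes that were lower after 6 h at 14% oxygen, in each mouse of 14-06h-ZH (red, left) and Normoxia (grey, right), where each point is 1 mouse and bars show the mean ± SD of 6 mice. In all 8 genes every hypoxic mouse lies below every normoxic mouse.

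Larger falls were seen for Scand1, a (agouti), Cebpb and Nrtn. Scand1, a SCAN domain protein encoded at chr2:156311847-156312704 (GRCm38), had 3.62, 6.598 and 7.37 FPKM in 14-06h-ZH and 39.3, 44.6 and 51.9 FPKM in Normoxia (log2 fold change −2.90, SE 0.16, limma adjusted p = 9.90e-08). The agouti gene a, known for its role in coat colour and carried as a nonagouti allele by C57BL/6J mice, had 4.25, 5.78 and 6.98 FPKM in 14-06h-ZH and 29.5, 38.03 and 47.5 FPKM in Normoxia (log2 fold change −2.75, SE 0.13). Nrtn, the ligand neurturin of the GDNF family, had 0.548, 0.844 and 1.05 FPKM in 14-06h-ZH and 3.49, 4.399 and 4.82 FPKM in Normoxia (log2 fold change −2.29, SE 0.15). None of these genes overlapped between the groups. The GC content of the longest Nrtn transcript was 72.8% and that of Scand1 68.4%, and after GC correction their log2 fold changes were −1.53 and −2.35. Ret, the signalling receptor of neurturin, rose slightly (log2 fold change 0.18, SE 0.06, limma adjusted p = 0.0279), but it did not pass without replicate 4 of Normoxia (0.0682), among other mice, and Gfra2, its coreceptor, did not pass as deposited (0.18, SE 0.07). The predicted genes Gm1673 and Gm20721 were also among the largest falls, at −2.07 (SE 0.14) and −1.96 (SE 0.31).

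In the 14-48h-ZH mice most of these genes stood near their 6 h levels. The median of a was lower at 48 h, with a range of 3.40 to 6.53 FPKM there and 4.25 to 6.98 FPKM at 6 h. The medians at 48 h were 5.71 FPKM for Scand1, 4.59 FPKM for Zfp771, 10.4 FPKM for Ccdc85b, 16.5 FPKM for Pcsk1n, 3.86 FPKM for a, and 0.772 FPKM for Nrtn. The log2 fold changes of 14-06h-ZH over 14-48h-ZH were 0.03 (SE 0.17) for Scand1, −0.06 (SE 0.10) for Zfp771 and −0.01 (SE 0.09) for Ccdc85b, and none of the 6 genes passed the test in that contrast. Exposure to 14% oxygen and the code series are shared by 14-06h-ZH and 14-48h-ZH and cannot be told apart for these genes.

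Nr2e3, Glb1l3 and Csrp3 differed from Normoxia and also between 6 h and 48 h. Nr2e3, the nuclear receptor that represses cone genes in rods, had 311, 342 and 379.5 FPKM in 14-06h-ZH and 564, 581 and 653 FPKM in Normoxia (log2 fold change −0.80, SE 0.05, limma adjusted p = 1.13e-08), and at 48 h its median was 503 FPKM (−0.54, SE 0.05, 6 h over 48 h). Glb1l3, a gene related to beta-galactosidase, had 7.801, 9.55 and 11.6 FPKM in 14-06h-ZH and 23.9, 24.6 and 26.5 FPKM in Normoxia, with a median of 15.8 FPKM at 48 h. Both were separate from Normoxia, and their medians were lowest at 6 h. Csrp3, a LIM protein of muscle, had 0.721, 0.963 and 1.46 FPKM in 14-06h-ZH and 1.201, 3.72 and 4.31 FPKM in Normoxia, where 1 normoxic mouse fell into the hypoxic range. Its log2 fold change of −1.56 became −1.18 (limma adjusted p = 0.0755) without the 5 libraries rich in lens RNA.

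Immediate early genes, which neurons switch on within minutes of activity, included several lower genes. Of 43 tested, 0 rose by limma and 13 fell at any fold, 5 of them called, with a median log2 fold change of −0.38. The share that fell was near the 24.8% of all genes tested, of which 0.585% were called lower. At an unadjusted p under 0.05 the limma counts were 0 and 19, and edgeR on recovered reads gave 2 higher and 12 lower. Jund had 17.7, 18.7 and 20.97 FPKM in 14-06h-ZH and 46.4, 49.5 and 61.2 FPKM in Normoxia (log2 fold change −1.43, SE 0.07, limma adjusted p = 1.44e-09). Junb had 6.999, 10.4 and 13.3 FPKM in 14-06h-ZH and 19.6, 24.7 and 29.2 FPKM in Normoxia (log2 fold change −1.27, SE 0.16). These 2 subunits of the AP-1 factor, and the activity-dependent neuronal factor Npas4 (−1.03, SE 0.10) and Ier5l (−1.22, SE 0.13), did not overlap between the groups. Egr4 overlapped, at 0.111, 0.163 and 0.356 FPKM in 14-06h-ZH and 0.232, 0.794 and 1.76 FPKM in Normoxia. Jun (−0.43, SE 0.06) and Ier2 (−0.74, SE 0.11) fell by less than 2-fold, and 0 of the 43 genes differed between 14-06h-ZH and 14-48h-ZH by limma after adjustment, while 6 were higher at 6 h at an unadjusted p under 0.05.

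The CEBP factors, leucine zipper proteins that act in inflammation and differentiation, gave 3 lower genes of 6, against 24.8% of all genes tested. Of the 6, 1 was called lower, against 0.585% of all genes, and 2 were lower after GC correction. Cebpb had 0.305, 0.406 and 0.524 FPKM in 14-06h-ZH and 2.14, 2.702 and 3.87 FPKM in Normoxia (log2 fold change −2.51, SE 0.17, limma adjusted p = 3.43e-08). These values rest on 8 to 14 reads in 14-06h-ZH and 48 to 106 reads in Normoxia. Its level in the hypoxic mice was below that of every normoxic mouse. Cebpd had 1.32, 1.84 and 2.32 FPKM in 14-06h-ZH and 1.82, 3.18 and 3.88 FPKM in Normoxia, with overlap (log2 fold change −0.73, SE 0.17), and Cebpa reached −0.78 (SE 0.22), with a limma adjusted p of 0.0884 after GC correction. Cebpd was higher at 6 h than at 48 h (log2 fold change 0.76, SE 0.16, limma adjusted p = 0.0273).

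Transcription factors that set the fate of retinal neurons fell more often than they rose, with 17 lower and 3 higher of 30 and a median log2 fold change of −0.24. All genes tested did so as well, with 24.8% lower and 9.53% higher. The edgeR fit on recovered reads gave 16 lower and 4 higher of the list, against 2957 and 2787 of all 17087 genes. In RNA of a whole retina, fewer cells of a type and less RNA per cell cannot be told apart. Insm1, a zinc finger factor of neuroendocrine and photoreceptor differentiation, had 6.5, 7.32 and 7.79 FPKM in 14-06h-ZH and 14.96, 16.6 and 17.3 FPKM in Normoxia (log2 fold change −1.16, SE 0.06, limma adjusted p = 2.47e-09). Hmx1, a homeobox factor of eye development, had 7.17, 8.65 and 9.45 FPKM in 14-06h-ZH and 16.8, 22.5 and 25.1 FPKM in Normoxia (log2 fold change −1.36, SE 0.09), and Rax, needed to form the eye field and kept in photoreceptors, had 38.96, 42.2 and 46.9 FPKM in 14-06h-ZH and 58.8, 67.6 and 74.1 FPKM in Normoxia (log2 fold change −0.65, SE 0.06). All 3 were below the normoxic range in every hypoxic mouse. Nrl, which specifies rods, fell by less (log2 fold change −0.28, SE 0.04). Thrb, the thyroid hormone receptor of cones, rose (log2 fold change 0.27, SE 0.04), as did the photoreceptor factor Crx (0.13, SE 0.04), which was named after its values were seen. Outside the list, the orphan receptor Nr2f6 (−1.16, SE 0.07) and the homeobox gene Gsc2 (−1.48, SE 0.14) were called lower.

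Phototransduction genes changed little and in both directions. Of 25 genes of the rod cascade 3 rose and 9 fell, and of 13 of the cone cascade 2 rose and 5 fell, with medians of −0.01 and −0.07 on the log2 scale. For all genes tested, 9.53% rose and 24.8% fell, with a median of −0.05. With edgeR on recovered reads the rod cascade had 7 higher and 5 lower genes and the cone cascade 4 and 5. All 17087 genes gave 2787 higher and 2957 lower in that fit. Without replicate 3 of 14-06h-ZH, and likewise without replicate 2 of Normoxia, 5 rod genes were higher. Gngt1, the gamma subunit of rod transducin, was lower at 392 to 525 FPKM in 14-06h-ZH, against 574 to 702 FPKM in Normoxia, and Guca1a, the activator of guanylate cyclase, was lower at 569.7 to 694 FPKM in 14-06h-ZH, against 747 to 935 FPKM in Normoxia. The cone pigment gene Opn1sw had 302 to 388 FPKM in 14-06h-ZH and 408 to 454 FPKM in Normoxia (log2 fold change −0.25, SE 0.05), but its limma adjusted p was 0.00149 in the comparison of 12 mice and 0.0709 with all 7 groups in 1 fit.

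Nuclear genes of the respiratory chain and genes of the ribosome were often slightly lower. Among all genes tested, 24.8% fell and 9.53% rose. Of 79 nuclear subunits of oxidative phosphorylation, 59 fell and 0 rose by limma, with a median log2 fold change of −0.26, and none of those that fell reached 2-fold. At an unadjusted p under 0.05 there were 60 lower and 3 higher, and edgeR on recovered reads gave 47 lower and 3 higher. After GC correction 46 were lower and 4 higher. Cox8a, a subunit of cytochrome c oxidase, had 163, 170.1 and 180.5 FPKM in 14-06h-ZH and 244, 263 and 276 FPKM in Normoxia (log2 fold change −0.61, SE 0.04, limma adjusted p = 2.44e-08). Cox5b of the same complex was at 102 to 114 FPKM in 14-06h-ZH and 142 to 161 FPKM in Normoxia, and Uqcrq of complex III at 68.6 to 89.5 FPKM in 14-06h-ZH and 115 to 129 FPKM in Normoxia. All 3 fell in every hypoxic mouse. Of 11 mitochondrially encoded genes of the chain, 2 rose and 3 fell, with a median log2 fold change of 0.05. For these, edgeR on recovered reads gave 4 higher and 1 lower. Of 82 cytosolic ribosomal proteins, 41 fell and 2 rose, with a median of −0.14, while edgeR on recovered reads gave 27 lower and 7 higher. Rpl10a had the smallest p of them, with 100.5, 104 and 108 FPKM in 14-06h-ZH and 156, 159 and 174 FPKM in Normoxia (log2 fold change −0.64, SE 0.03).

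Splicing, histone and chaperone genes were also more often lower, beside 24.8% lower and 9.53% higher among all genes tested. Of 20 cold-inducible and splicing kinase genes, 17 fell and 0 rose by limma, both before and after adjustment, with a median log2 fold change of −0.32, and edgeR on recovered reads gave 15 and 0. The members with the smallest p were splicing factors and a kinase that modifies them. Srsf2, a serine-rich and arginine-rich splicing factor, had 159, 169 and 186 FPKM in 14-06h-ZH and 288, 293 and 311 FPKM in Normoxia (log2 fold change −0.78, SE 0.04), and Srsf6 (−0.54, SE 0.05) and the kinase Clk2 (−0.55, SE 0.06) fell by less. Of 34 replication-dependent histones 13 fell and 0 rose by limma (15 and 0 at an unadjusted p under 0.05, 11 and 0 by edgeR), among them Hist3h2a at 30.7, 38.1 and 41.0 FPKM in 14-06h-ZH and 61.4, 67.6 and 75.4 FPKM in Normoxia and the called Hist1h4k (−1.25, SE 0.16). Many histone genes are near copies of each other, and reads may have been split among them.

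Heat shock proteins and chaperonins gave 20 lower and 3 higher genes of 41, against 24.8% lower and 9.53% higher among all genes tested. The edgeR fit on recovered reads gave 11 lower and 5 higher, against 2957 and 2787 of all 17087 genes. Hspe1, the mitochondrial chaperonin of 10 kDa, had 18.4, 19.2 and 22.7 FPKM in 14-06h-ZH and 31.8, 32.6 and 36.98 FPKM in Normoxia, without overlap (log2 fold change −0.77, SE 0.06). Hspa1b, an inducible HSP70, had 3.45, 5.38 and 6.14 FPKM in 14-06h-ZH and 10.1, 11.6 and 17.04 FPKM in Normoxia (log2 fold change −1.28, SE 0.15, limma adjusted p = 1.83e-05), and its near-identical neighbour Hspa1a had 5.34, 6.51 and 6.96 FPKM in 14-06h-ZH and 9.69, 12.1 and 16.6 FPKM in Normoxia. Reads of this pair cannot be assigned with certainty. Hsf1, the factor that switches on heat shock genes, fell as well (log2 fold change −0.55, SE 0.05).

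The largest falls among called genes belonged to single-exon genes, among them the ribosomal protein pseudogene Rpl9-ps6. Gm10073 had 0 to 0.341 FPKM in 14-06h-ZH and 4.43 to 10.1 FPKM in Normoxia, on 0 to 3 reads in 14-06h-ZH and 40 to 96 reads in Normoxia (fitted log2 fold change −4.82, SE 0.32). Rps27rt had 0 to 1 reads in 14-06h-ZH and 8 to 30 in Normoxia, Gm11273 had 0 to 2 reads in 14-06h-ZH and 15 to 22 in Normoxia, and Rpl9-ps6 had 1 to 7 reads in 14-06h-ZH and 49 to 98 in Normoxia. Gm9843 (−2.43, SE 0.18) and Gm11808 (−2.41, SE 0.39) were the other 1-exon predicted genes among the largest falls. At 48 h, in the code series of 14-06h-ZH, Gm10073 had a median of 0.298 FPKM and Rpl9-ps6 one of 0.365 FPKM, both near the 6 h level. Reads of a pseudogene and of the gene it resembles cannot be assigned with certainty.

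Transcripts of surface epithelium were among the largest increases. Among all genes tested, 9.53% rose, 0.369% were called higher and 24.8% fell. Of 27 keratins tested, 12 rose, 9 of them called, and 2 fell. Of 49 other markers of the ocular surface and related epithelia, 16 rose, 9 of them called, and 2 fell. Of these 49, 6 were higher without the 5 libraries rich in lens RNA and 9 in the libraries with Y-linked expression, fits that hold fewer mice. The summed level of the keratins was 51.7 to 81.3 FPKM in 14-06h-ZH and 46.6 to 60.0 FPKM in Normoxia, and that of the other markers was 325 to 525 FPKM in 14-06h-ZH and 312 to 383 FPKM in Normoxia. Krt5, a keratin of basal epithelium, had 1.33, 1.93 and 2.92 FPKM in 14-06h-ZH and 0.342, 0.535 and 0.781 FPKM in Normoxia (log2 fold change 1.70, SE 0.20, limma adjusted p = 9.57e-06). Its partner Krt14 had 0.289, 0.576 and 0.694 FPKM in 14-06h-ZH and 0, 0.0743 and 0.238 FPKM in Normoxia, on 8 to 19 reads in 14-06h-ZH and 0 to 5 reads in Normoxia, and Krt15 had 2.596, 4.601 and 7.46 FPKM in 14-06h-ZH and 0.919, 1.09 and 2.39 FPKM in Normoxia. The groups were separate for all 3 keratins, though at levels of a few FPKM or less. Krt80 (1.66, SE 0.27) and Krt6b (1.29, SE 0.25) were called as well. The cornea keratin Krt12 rose with overlap, at 0.805 to 1.93 FPKM in 14-06h-ZH and 0.458 to 1.27 FPKM in Normoxia, and its limma adjusted p was 0.0109 in the comparison of 12 mice and 0.135 with all 7 groups in 1 fit. The epidermal keratins Krt10 (−0.49, SE 0.11) and Krt1 (−0.60, SE 0.16), named after their values were seen, were the 2 that fell, and Krt1 did not pass without the 5 libraries rich in lens RNA (limma adjusted p = 0.0875).

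Genes of this kind other than keratins were higher too. Cbr2, a carbonyl reductase, had 5.35, 9.03 and 18.9 FPKM in 14-06h-ZH and 0.987, 1.88 and 2.42 FPKM in Normoxia, the largest log2 fold change among called genes with a mean of at least 1 FPKM and no overlap (2.30, SE 0.31, limma adjusted p = 0.000131). Muc4, a membrane mucin, had 1.51, 2.37 and 2.77 FPKM in 14-06h-ZH and 0.566, 0.772 and 1.04 FPKM in Normoxia, and Elf3, an epithelial transcription factor, had 1.42, 1.82 and 2.83 FPKM in 14-06h-ZH and 0.495, 0.886 and 1.05 FPKM in Normoxia. The ranges of these 3 genes were separate. Alox12e (1.93, SE 0.32), S100a14 (1.15, SE 0.27), Adh1 (1.76, SE 0.36) and Adh7 (1.63, SE 0.43) were called higher too, but S100a14 had a limma adjusted p of 0.0552 with all 7 groups in 1 fit, and Adh7 a log2 fold change of 0.59 (adjusted p = 0.335) without the 5 libraries rich in lens RNA. Fabp5, an epithelial fatty acid binding protein, had 30.3 to 57.4 FPKM in replicates 3, 4 and 6 of 14-06h-ZH, the mice of that group rich in lens RNA. Replicates 1, 2 and 5 had 6.96 to 7.745 FPKM, within the 5.87 to 9.56 FPKM of Normoxia. The difference between the groups did not pass limma (adjusted p = 0.145) and passed edgeR on recovered reads (0.0406).

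The level of keratins 5, 14 and 15 did not overlap between the groups, with a mean of 0.42 to 1.36 in 14-06h-ZH and −1.18 to −0.24 in Normoxia on the log2(FPKM + 0.1) scale. When it was entered as a covariate, 4 genes were called higher and 46 lower, and at any fold 25 were higher and 159 lower, with 6 of the HIF targets and 7 of the glycolysis genes among the higher ones. Because this level and the group nearly coincide, that fit leaves little of the group difference to test, and the part of surface epithelium in other results cannot be told apart from that of the group. In the same fit the Egln1 log2 fold change was 1.21 (limma adjusted p = 0.00482) and the Zfp771 log2 fold change was −1.76 (0.000358). Of the 113 named genes, 65 no longer passed and 10 changed sign, among the latter Krt14 and Krt15, which are part of the covariate. Slc16a3 (limma adjusted p = 0.0508), Pdk1 (0.0882) and Fgf2 (0.929) were among those that no longer passed. Of the other tissue markers, lens fibre genes gave 0 higher and 0 lower of 11 by limma (1 and 1 at an unadjusted p under 0.05, 1 and 0 by edgeR), at a median log2 fold change of 1.90. Of 14 crystallins, which were kept out of the counts, 4 passed the limits of a call as higher and 0 fell, with a median log2 fold change of 2.80 and a summed level of 96.4 to 36610 FPKM in 14-06h-ZH and 36.1 to 9385 FPKM in Normoxia. Pigment cell genes gave 0 and 0 of 18 (0 and 0 unadjusted, 1 and 0 by edgeR), and microglial genes 2 higher and 0 lower of 15 by limma, both being entries of Itgam under separate gene identifiers, and 2 and 0 by edgeR.

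**Figure D5:**
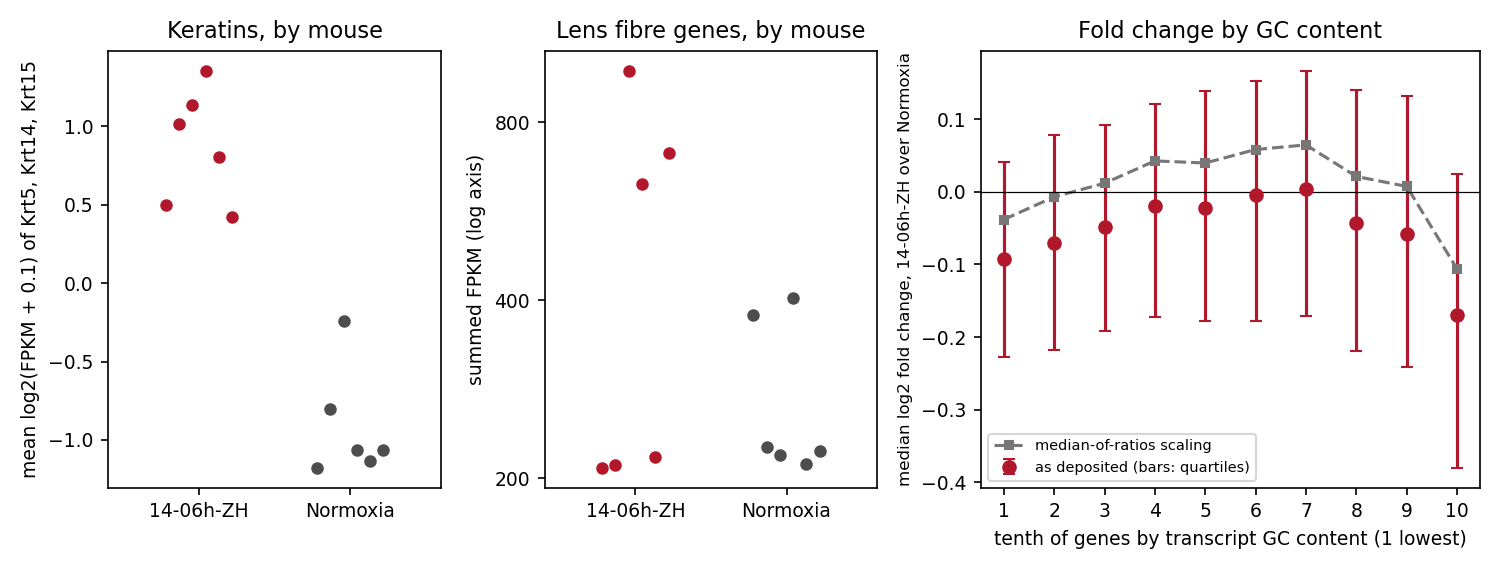
Left and middle, mean log2(FPKM + 0.1) of Krt5, Krt14 and Krt15 and summed FPKM of lens fibre genes (log axis) in each mouse of 14-06h-ZH (red) and Normoxia (grey). Right, median log2 fold change of 14-06h-ZH over Normoxia in 10 equal bins of genes by transcript GC content, with quartiles as bars (red) and after median-of-ratios scaling (grey squares). Keratin levels are apart between the groups, lens levels overlap, and the bin richest in GC has the lowest median at −0.17.

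GC content moved with the lower genes. In the bin of genes with the highest GC content (1 of 10 equal bins, 58.0% to 72.8%) the median log2 fold change was −0.17 and 40.5% of genes were lower at any fold, while in bin 7 (51.6% to 53.6%) the median was 0.00 and 20.6% were lower. The richest bin held 49 of the 100 genes called lower and 4 of the 63 called higher. After correction for GC content in each library 55 genes were called lower and 79 higher. Zfp771 (−1.37), Ccdc85b (−1.83), Pcsk1n (−1.62), Cebpb (−2.03) and Scand1 (−2.35) kept log2 fold changes past 2-fold in that fit, and Jund (−0.95), Insm1 (−0.91), Hmx1 (−0.80) and Nr2f6 (−0.67) stayed lower at less than 2-fold. HIF targets gave 31 higher and 2 lower genes, and glycolysis 23 higher and 1 lower, after the same correction.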

How the data were processed

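Retinas of 12 of the 42 mice (6 of 14-06h-ZH and 6 of Normoxia) were compared, and 6 of 14-48h-ZH were set beside them. The authors sequenced 1 retina per mouse in paired-end mode, aligned reads to mouse GRCm38 with STAR (named in the submitters' processing notes) and deposited, per gene and mouse, FPKM and a normalized read signal (counts divided by a size factor). The counting tool, its strand setting and the gene lengths behind the FPKM are not given in the sources used here. The signal steps gave whole reads for all values within 0.1 steps, and these recovered reads gave the depths. Large values are rounded in the table, so large counts are approximate. Columns of the authors' own comparisons were not used.

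limma 3.58.1 (R 4.3.3) was fitted on log2(FPKM + 0.1) of the 12 mice with trend and robust settings and Benjamini-Hochberg adjustment over all genes tested. A gene was tested where at most 3 mice of each group were at 0. Haemoglobins, crystallins, Rpe65, Mlana and Pmel stayed out of counts, as these stand for blood, lens and pigment cells. The 6 h and 48 h mice were fitted in the same way. Alternatives included edgeR 4.0.16 and DESeq2 1.42.0 on recovered reads, other pseudocounts, filters and scalings, and correction for GC content of the longest GENCODE M21 transcript. P-values weigh the difference between groups against the spread of mice within groups. Each group held a single code series, so the p-values do not cover the spread between code series. Scripts were tested on simulated data.

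Members and gene lists were chosen with earlier results of these data known. Genes were named by rule, as the called genes with the largest change without overlap (12 per direction) and those with the smallest p (10), both at a mean of at least 1 FPKM, the 6 members with the smallest p of each described list (any member of a small list), genes the study text names for this group, and tissue markers. Promoter windows came from RefSeq. Results of some genes are not reported here.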

Additional observations from a re-analysis of the deposited data

Results flagged for a closer look

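In 8 of the 226 groups of 6 values examined for the named genes, 1 mouse stood apart from the other 5, its gap to the nearest value being large for the range of the group by Dixon's 95% limit. Chance alone flags about 1 in 20 such groups. In 14-06h-ZH, replicate 2 was high for Cox5b (114.1 FPKM, against 101.7 to 106.2 FPKM in the others) and for Hspe1 (22.7 FPKM, against 18.45 to 19.98 FPKM), and replicate 6 was low for Krt14 (0.289 FPKM, against 0.548 to 0.694 FPKM). In Normoxia, replicate 3 was low for Csrp3 (1.201 FPKM, against 3.46 to 4.31 FPKM) and high for Krt15 (2.39 FPKM, against 0.919 to 1.31 FPKM). In the same group, replicate 5 was high for Tmem259 (70.8 FPKM, against 65.1 to 67.2 FPKM) and for Zfp771 (19.8 FPKM, against 16.7 to 17.5 FPKM), and replicate 6 was high for Vegfa (195 FPKM, against 161 to 174 FPKM).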

How the results depend on the processing

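Of 3156 values of 113 genes under 28 alternatives, 2995 kept their direction and their side of the threshold, 134 no longer passed, 17 newly passed and 10 changed sign. All 10 changed sign with the keratin level as a covariate, which nearly coincides with the group: Adh1 (−0.83), Adh7 (−1.18), Alox12e (−0.019), Csrp3 (0.43), Elf3 (−0.032), Krt12 (−0.32), Krt14 (−0.0053), Krt15 (−0.53), Krt6b (−0.43) and Krt80 (−0.48). Krt14 and Krt15 are part of the covariate, so their changes are partly built in. None of the 10 passed the test with the covariate. In that fit, 4 genes were called higher and 46 lower, and 25 were higher and 159 lower at any fold. This covariate, the fit without the 5 lens-rich libraries and the fit of Y-expressing libraries were chosen after seeing the data.

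Genes called higher numbered 63, but 8 with a pseudocount of 1, 117 with one of 0.01, 25 at a mean of at least 1 FPKM, 137 with normalized counts, 133 with edgeR and 127 with DESeq2. Genes called lower numbered 100, but 38 with a pseudocount of 1 and 55 after GC correction. At any fold, 1628 genes were higher, but 2676 after median-of-ratios scaling, 2615 with normalized counts, 2787 with edgeR, 2904 with DESeq2 and 2874 after GC correction. Without the 5 lens-rich libraries 896 were higher and 2624 lower at any fold, and in the 9 Y-expressing libraries 1051 and 2800, fits that hold fewer mice. At any fold 4240 were lower, but 2690 after GC correction. Beyond the smaller numbers of mice and genes and the construction of the pseudocounts, the cause was not tested.

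Leaving out 1 mouse at a time gave 56 to 92 genes called higher and 95 to 107 called lower, and 1406 to 1598 higher and 3816 to 4235 lower at any fold. Replicate numbers did not pair the mice, since correlations of deviations between same-numbered mice ran from −0.70 to 0.61. With the replicate number as a block, 63 genes were called higher and 97 lower, and 1417 were higher and 3949 lower at any fold. Depth limits scarce genes most, and many genes called higher lay below 1 FPKM.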
